A study of Mus musculus with 19 samples.

Results

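The genes described here make, regulate and move cholesterol in the striatum of mice that carry a mutant huntingtin gene. A list of 34 genes was kept by the rule that each had at least 10 counts in at least 4 of the 19 mice. All 34 passed this rule and the filter on low counts, out of 54232 genes in the count table, of which 18952 passed the same rule and 18521 were tested. They fall into 7 mevalonate genes and 12 squalene and sterol genes, which together make up 19 synthesis genes, 5 regulators, and 10 genes of uptake, transport and turnover.

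Striatal RNA was sequenced from 7 WT mice and from 4 mice of each knock-in (KI) genotype, KI-96, KI-571 or KI-FL. The mice were all at 6 months of age and on the C57/BL/6 background. The KI mice were heterozygous for the HD140Q knock-in allele, a mouse Htt gene that encodes an expanded polyglutamine (polyQ) repeat, and also carried a WT allele. KI-FL mice express the full-length mutant protein, whereas CRISPR-Cas9 had truncated the mutant allele at exon 2 in KI-96 mice and at exon 13 in KI-571 mice, which leaves an N-terminal fragment with the expanded repeat. Each truncated line goes back to edited founders, so that a line and its truncation cannot be told apart. The mutant protein is made from the endogenous gene, and striatal tissue mixes neurons with glia, so that fewer cells of a type and less RNA per cell cannot be told apart in these libraries. Nothing in the labels says more of the origin of each sample than its genotype and replicate number, and p-values measure the spread between these samples. The paper describes fewer WT mice than the 7 WT replicates of the labels. Whether each replicate is a separate mouse is not stated, and each is counted as a mouse here.

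Cholesterol in the brain is made within the brain, because lipoprotein cholesterol does not readily cross the blood-brain barrier. Acetyl-CoA is turned into mevalonate and then into isoprenoid units, which are joined to squalene, and squalene is closed to lanosterol and trimmed to cholesterol. SREBP transcription factors, held in the endoplasmic reticulum by SCAP and INSIG proteins when sterol is plentiful, switch on the synthesis genes when sterol is scarce. Astrocytes pass cholesterol to neurons on apolipoprotein E particles, oligodendrocytes use much of it for myelin, and neurons dispose of the excess through CYP46A1. The comparison of the genotypes asks whether the length of the mutant HTT fragment goes with different levels of these transcripts.

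The sequences before the gene starts are shown because the members are often described as one group under shared control. Windows of 250 bases before the RefSeq start, on GRCm38.p6, were at hand for 29 of the 34 genes. In them, 2 motifs were searched on both strands, namely TCACNCCAC, the letters of a sterol regulatory element, and CCAAT, whose complement is ATTGG. The windows of Hmgcs1 (chr13:119690101-119690350, plus strand), Mvk (chr5:114444019-114444268, plus strand) and Abca1 (chr4:53159896-53160145, minus strand) read as follows, with motif matches in capitals.
Hmgcs1: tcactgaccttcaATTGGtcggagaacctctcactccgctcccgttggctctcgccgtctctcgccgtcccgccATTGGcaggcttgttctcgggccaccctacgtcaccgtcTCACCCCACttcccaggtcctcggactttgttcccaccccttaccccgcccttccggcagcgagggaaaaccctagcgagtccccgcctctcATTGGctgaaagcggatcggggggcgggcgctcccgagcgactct
Mvk: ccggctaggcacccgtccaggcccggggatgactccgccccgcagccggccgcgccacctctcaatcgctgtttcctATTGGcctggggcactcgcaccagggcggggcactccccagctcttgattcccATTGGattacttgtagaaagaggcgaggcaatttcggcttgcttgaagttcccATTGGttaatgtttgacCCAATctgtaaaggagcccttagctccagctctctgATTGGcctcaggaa
Abca1: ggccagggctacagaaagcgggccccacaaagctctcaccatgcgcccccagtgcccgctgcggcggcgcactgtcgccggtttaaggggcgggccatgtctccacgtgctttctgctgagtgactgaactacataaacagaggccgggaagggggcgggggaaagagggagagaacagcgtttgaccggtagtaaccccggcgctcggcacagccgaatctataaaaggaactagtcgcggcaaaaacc

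The window of Hmgcs1 holds 1 match to TCACNCCAC and 3 to CCAAT, that of Mvk 5 to CCAAT, and that of Abca1 none to either motif. Among the synthesis genes, 15 of the 16 with a window hold CCAAT, as do 4 of 5 regulators and 3 of 8 transport genes, compared with 37.5% of all 27025 genes in the table. TCACNCCAC was found in 1 of the 16 synthesis genes and in 1.23% of all genes. These are letter matches in a short window, and binding at them was not measured.

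The targeted gene, Htt (GRCm38, chr5:34761740-34912534, plus strand), was counted without telling its alleles apart. Expressed as CPM, the count scaled to the size of the library, the WT mice had 168 to 195, with a median of 173. The levels were 176, 184, 240 and 143 CPM in the KI-96 mice, 141, 124, 127 and 104 in the KI-571 mice, and 160, 155, 179 and 137 in the KI-FL mice. All 4 KI-571 mice lay below every WT mouse, and the other KI genotypes overlapped with WT.

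Total counts on genes ranged from 12669809 to 26388542, and 3 counts, taken as the floor, were worth 0.114 to 0.237 CPM, which covers counting error only. KI-96 replicate 3 had 24.2% of its reads on no gene, compared with 11.1% to 16.0% in the other 18 mice, and in KI-FL replicate 4 no read was counted for 3186 of the tested genes, compared with 10 to 222 genes in the other mice. Xist, an RNA of the inactive X chromosome, was at 886 to 1615 CPM in the KI-96 group throughout, in replicate 1 of WT and in replicate 2 of KI-FL, and at no more than 5.05 CPM in the other 13 mice. The labels give no sex, and in KI-96 mice the genotype and a high Xist level cannot be told apart. The 10 striatal projection neuron markers had a mean of 8.80 to 9.40 log2 CPM in WT mice and 8.66 to 9.34 over the KI mice. Markers of neighbouring tissue varied more, with cortical neuron markers at 5.79 log2 CPM in WT replicate 3 and 4.69 in KI-571 replicate 2. Choroid plexus markers were at 6.02 in KI-571 replicate 2, 6.38 in KI-571 replicate 4 and 5.60 in KI-FL replicate 1. The other KI-571 mice were at 3.01 and 1.43, and the WT mice at no more than 3.46.

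In WT striatum the transport and turnover genes included the most abundant members. Scaled by annotated exon length, Apoe, the main lipoprotein component of the brain, reached 816 ± 65.5 CPM per kb (SD, n = 7), followed by Cyp46a1, the neuronal enzyme that hydroxylates cholesterol for export, at 71.0 ± 10.8. Lrp1, a receptor for apolipoprotein E particles, was at 35.4 ± 4.21 CPM per kb and Srebf2, the SREBP that mainly serves the synthesis genes, at 35.0 ± 3.39, so that these neighbours did not differ beyond their spread. Hmgcs1, which makes HMG-CoA, led the synthesis genes with 24.7 ± 4.43 CPM per kb. Of the 19 synthesis genes, 16 were between 3 and 15 CPM per kb, and the receptor gene Nr1h3 was low at 1.55 ± 0.281 CPM per kb.

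**Figure D1:**
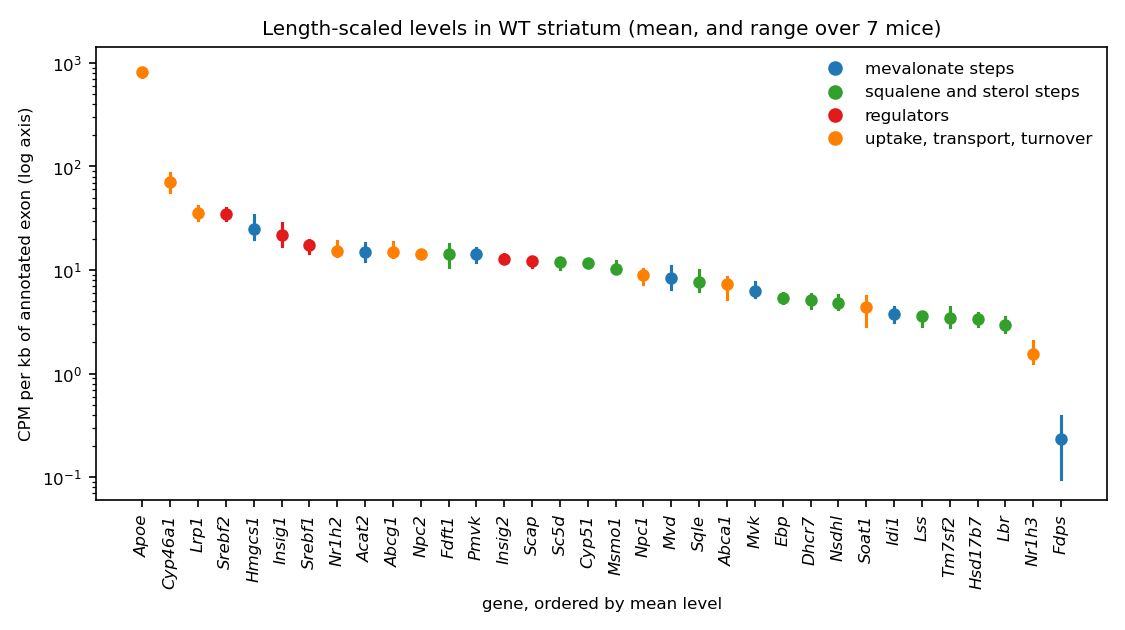
Mean level of each of the 34 genes in 7 WT mice in CPM per kb of annotated exon on a log axis, with a line from the lowest to the highest mouse and colour for the role of the gene. Apoe stands at 816 CPM per kb, and most synthesis genes lie further right, at lower levels, than the 5 regulators.

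Fdps, which makes farnesyl diphosphate, was the lowest member with 0.233 ± 0.0866 CPM per kb. It shares 26.7% of its exon bases with Gm43738 on the same strand, and 21.4% of its 100-base stretches occur in other genes, so that reads could have been split or left uncounted and its values are uncertain. The same share of stretches was 28.9% for Acat2 (Acat3 and Tcp1), 21.9% for Idi1, 18.3% for Fdft1 (Ctsb) and 8.22% for Hmgcs1, and 0% for Mvk, Msmo1, Npc2 and Abca1. The strand setting of the counting is not stated, so that antisense overlap cannot be set apart. The coefficient of variation among WT mice ranged from 5.83% for Npc2 and 5.91% for Cyp51 to 37.1% for Fdps.

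No member passed an adjusted p of 0.05 in any of the 6 comparisons of 2 genotypes in the quasi-likelihood test of edgeR after Benjamini-Hochberg adjustment. Among all 18521 genes this threshold was passed by 0.027% for KI-96 against WT, 0.0324% for KI-571 against WT and 0.194% for KI-FL against WT. It was passed by 0.0864% for KI-571 against KI-FL, 0% for KI-96 against KI-FL, 0.0054% for KI-96 against KI-571 and 0.14% in the test for any difference among the 4 genotypes. The smallest adjusted p of a member was 0.385 (Cyp51) for KI-96, 0.562 (Nr1h3) for KI-571 and 0.131 (Hmgcs1) for KI-FL against WT, in the same edgeR test. DESeq2 called 1 member in KI-96 against WT, Cyp51, with an adjusted p of 0.0279, and 2 in the test for any difference, Cyp51 and Msmo1, with adjusted p-values of 0.0285 and 0.0282, and none in the other 5 comparisons. Of all genes, DESeq2 called 0.14% for KI-96, 0.626% for KI-571 and 2.74% for KI-FL against WT, and 2.5% in the test for any difference. Its share was 0.562% for KI-571 against KI-FL, 0.2% for KI-96 against KI-FL and 0.189% for KI-96 against KI-571. Single-gene differences below are therefore given as values with unadjusted p, beside the share of all genes that reached the same unadjusted p.

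In KI-96 mice, the log2 fold change against WT was below 0 for all 19 synthesis genes, with a median of -0.20, for 1 of 5 regulators (median 0.069) and for 3 of 10 transport genes (median 0.11). In all, 23 of 34 members were below 0, compared with 52.8% of all genes, whose median was -0.015. An unadjusted p under 0.05 with a lower level was found for 6 members, 5 of them synthesis genes, and for 3.09% of all genes, and with a higher level for 2 members and 4.36% of all genes. The KI-96 and WT mice did not overlap in 3 members, Idi1, Cyp51 and Msmo1, all lower in KI-96 mice, compared with 1.24% of all genes.

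These counts moved with single libraries and with Xist. KI-96 replicate 3 had the lowest KI-96 level of 13 of the 19 synthesis genes, and without it 15 were below 0, with a median of -0.14. Without WT replicate 3, KI-96 replicate 3 and KI-FL replicate 4 together, 13 of 19 were below 0 and the median was -0.083. With Xist as a covariate 14 of 19 were below 0, the median was -0.094, and none of the 34 members had an unadjusted p under 0.05, compared with 8 without it. All 4 KI-96 mice had high Xist, as did only 1 WT and 1 KI-FL mouse. This fit therefore cannot separate Xist from the KI-96 genotype, and the lost p-values do not show what part Xist has. WT replicate 1, the only WT mouse with high Xist, had the lowest WT level of 11 of the 19 synthesis genes.

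In KI-571 mice, 13 of 19 synthesis genes were below 0 (median -0.11), as were 3 of 5 regulators (median -0.043) and 2 of 10 transport genes (median 0.14). This made 18 of 34 members, compared with 51.7% of all genes. Lower levels with an unadjusted p under 0.05 were found in 0 members and 3.83% of all genes, and higher levels in 2 members and 3.89%. No member separated KI-571 from WT mice without overlap, compared with 1.55% of all genes. Both members with higher levels, Nr1h3 and Npc2, belong to transport and turnover.

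In KI-FL mice, 14 of 19 synthesis genes (median -0.11), 2 of 5 regulators (median 0.15) and 3 of 10 transport genes (median 0.083) were below 0, in all 19 of 34 members compared with 53.9% of all genes. An unadjusted p under 0.05 was found for 6 members with a lower level and 8.84% of all genes, and for 1 member with a higher level and 7.89% of all genes. The KI-FL and WT mice did not overlap in 1 member, Mvk, compared with 5.29% of all genes. All 12 oligodendrocyte markers were also below 0 in KI-FL mice, with a median of -0.26, and their mean was 7.70 to 7.90 log2 CPM in KI-FL mice and 7.77 to 8.30 in WT mice. In KI-571 mice 11 of the 12 markers were below 0 (median -0.13, range of the mean 7.75 to 8.16 log2 CPM), and in KI-96 mice 9 of 12 (median -0.094, range 7.55 to 8.26). With the marker mean as a covariate, 13 of 19 synthesis genes were below 0 in KI-FL mice and 7 members had an unadjusted p under 0.05, but the members differed. Sc5d and Abca1 no longer reached it, while Apoe and Npc2 did. The marker mean was itself lower in KI-FL mice, so that this fit cannot fully separate the markers from the KI-FL genotype.

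**Figure D2:**
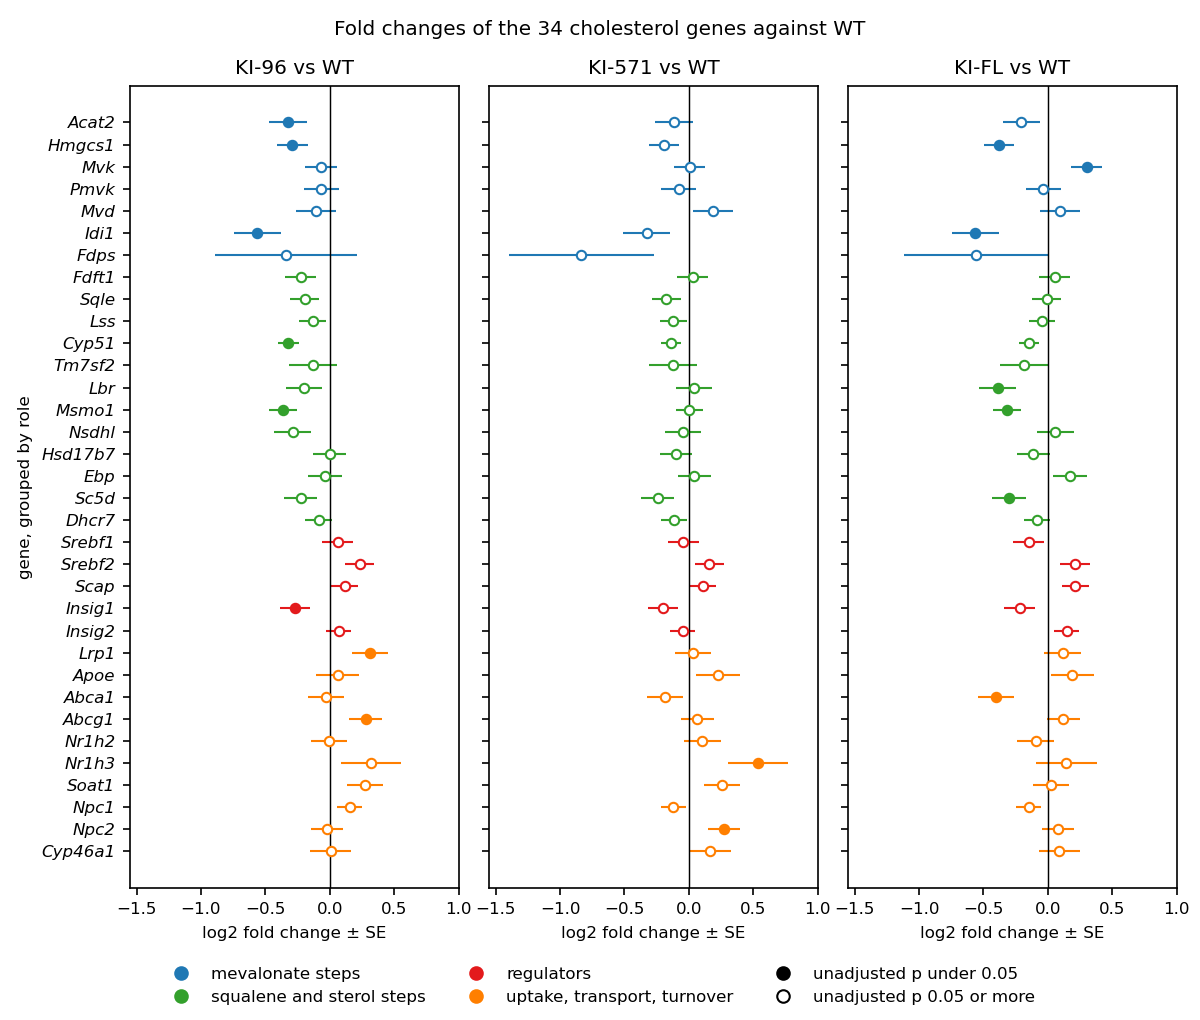
Log2 fold change of each of the 34 genes in each KI genotype against WT, with bars for the standard error and filled points for an unadjusted p under 0.05 in edgeR. All 19 synthesis points lie at or left of 0 in KI-96 mice, compared with 13 in KI-571 and 14 in KI-FL mice, and the same WT mice serve all 3 panels.

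Among the mevalonate genes, Hmgcs1 (chr13:119690379-119708260, plus strand) encodes the enzyme that condenses acetoacetyl-CoA and acetyl-CoA to HMG-CoA. The WT mice had 92.1 to 155 CPM with a median of 112, the KI-96 mice 93.7, 87.6, 90.3 and 99.5, the KI-571 mice 95.97, 89.5, 96.3 and 114, and the KI-FL mice 88.3, 71.6, 93.4 and 94.8. All KI genotypes overlapped with WT, whose lowest mouse was replicate 1. The log2 fold change against WT was -0.38 ± 0.12 (SE) in KI-FL mice, with an edgeR p of 0.00376 and a Benjamini-Hochberg adjusted p of 0.131, -0.29 ± 0.12 for the KI-96 genotype and -0.20 ± 0.12 for KI-571. The two-sided exact permutation p was 0.0182 for KI-FL and 0.0364 for KI-96 against WT. With each mouse left out, the KI-96 log2 fold change ranged from -0.33, without WT replicate 1, to -0.20, without WT replicate 3. That of KI-FL ranged from -0.43, without WT replicate 1, to -0.30, without KI-FL replicate 2.

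Idi1 (chr13:8885501-8892451, plus strand) encodes the isomerase that interconverts the isoprenoid units. It was at 11.2 to 15.5 CPM in WT mice, with a median of 13.7, at 7.94, 10.1, 8.35 and 9.43 in KI-96 mice, at 11.5, 7.498, 11.3 and 11.8 in KI-571 mice, and at 12.1, 8.55, 9.91 and 5.22 in KI-FL mice. All KI-96 mice lay below all WT mice, and in the other genotypes only some mice did. Its log2 fold change was -0.56 ± 0.18 in both KI-96 and KI-FL mice, with edgeR p-values of 0.00584 and 0.00593 and Benjamini-Hochberg adjusted p-values of 0.564 and 0.148. The exact permutation p of 0.00606 for KI-96 against WT is the smallest that the 330 splits of 4 mice against 7 can give. Without KI-FL replicate 4 the KI-FL log2 fold change was -0.38.

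Mvk (chr5:114444269-114460591, plus strand), which encodes mevalonate kinase, was the only member with an unadjusted p under 0.05 and a higher level in KI-FL mice. Its levels were 14.7 to 20.4 CPM in WT mice (median 17.5), 21.1, 20.5, 20.8 and 20.8 in the KI-FL mice, 17.7, 17.5, 18.1 and 14.6 for KI-571 and 19.6, 16.8, 12.1 and 16.1 for KI-96. Every KI-FL mouse was above every mouse of the other genotypes, by little in the case of WT. The share of all genes that separate KI-FL from the other KI genotypes in this way was not computed. Against WT the log2 fold change of Mvk was 0.30 ± 0.12, with an edgeR p of 0.0214, a Benjamini-Hochberg adjusted p of 0.218 and an exact permutation p of 0.00606. It was -0.30 ± 0.14 for KI-571 and -0.37 ± 0.14 for KI-96 against KI-FL, the latter -0.24 without KI-96 replicate 3.

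Of the remaining mevalonate genes, Acat2, which makes acetoacetyl-CoA, had a log2 fold change of -0.32 ± 0.15 in KI-96 mice and -0.16 without KI-96 replicate 3, whose level of 19.5 CPM was below the 28.8 to 41.1 CPM of the other KI-96 mice. Pmvk and Mvd, the enzymes after mevalonate kinase, were between -0.11 and 0.19 in all KI genotypes. Fdps had log2 fold changes from -0.84 to -0.34, with standard errors of 0.55 to 0.56 and no read in KI-FL replicate 4.

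Among the sterol genes, Msmo1 (chr8:64718139-64733792, minus strand) encodes an oxygenase that takes part in removing methyl groups on the way from lanosterol to cholesterol. The WT mice had 57.6 to 75.8 CPM (median 60.7), the KI-96 mice 44.7, 57.0, 38.4 and 54.9, the KI-571 mice 61.5, 60.6, 63.4 and 66.2, and the KI-FL mice 58.2, 47.8, 44.8 and 50.9. The KI-571 mice lay within the WT range, all KI-96 mice lay below it and 3 of the 4 KI-FL mice did. The log2 fold change against WT was -0.36 ± 0.11 for KI-96, 0.00 ± 0.11 for KI-571 and -0.32 ± 0.11 for KI-FL, and none passed after adjustment. KI-96 against KI-571 differed by -0.37 ± 0.12 with an exact permutation p of 0.0286, the smallest that the 70 splits of 4 against 4 can give, and KI-571 against KI-FL by 0.32 ± 0.12 with the same exact p.

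Cyp51 encodes the lanosterol demethylase and had the smallest p of any member, an unadjusted edgeR p of 0.000602 in KI-96 against WT. It is given by mouse because of this value, although it reached an unadjusted p under 0.05 in 1 comparison only. The WT mice had 46.7 to 53.5 CPM (median 52.9) and the KI-96 mice 41.6, 43.0, 36.7 and 42.4, with no overlap. The KI-571 mice, at 47.7, 43.5, 46.6 and 47.8 CPM, and the KI-FL mice, at 49.1, 43.2, 49.8 and 42.8, overlapped with WT. The log2 fold change of KI-96 against WT was -0.32 ± 0.08, -0.28 without KI-96 replicate 3, and -0.19 with Xist as a covariate (unadjusted p = 0.118).

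Lbr encodes a sterol reductase that also anchors chromatin at the nuclear envelope. Its levels were 11.9 to 16.8 CPM in WT mice (median 13.8), 11.2, 12.03, 12.03 and 7.18 in the KI-FL mice, 13.8, 15.3, 13.6 and 14.4 for KI-571 and 12.4, 9.68, 13.7 and 12.5 for KI-96. The KI-571 mice lay above all KI-FL mice, and each genotype overlapped with WT. For KI-571 against KI-FL the share of all genes without overlap was not computed, and 8.9% of all genes had an unadjusted edgeR p under 0.05. The log2 fold change of Lbr was -0.39 ± 0.14 for KI-FL against WT, or -0.24 without KI-FL replicate 4, the lowest mouse, and 0.43 ± 0.16 for KI-571 against KI-FL, or 0.28 without it.

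The desaturase gene Sc5d had log2 fold changes against WT of -0.30 ± 0.13 (KI-FL), -0.24 ± 0.13 (KI-571) and -0.23 ± 0.13 (KI-96), and -0.19 without KI-FL replicate 4. Nsdhl, which acts after Msmo1 in demethylation, differed by -0.35 ± 0.16 between KI-96 and KI-FL mice and by -0.20 without KI-96 replicate 3. The other 7 sterol genes, which encode the squalene synthase and epoxidase (Fdft1 and Sqle), lanosterol synthase (Lss), reductases (Tm7sf2 and Dhcr7), a dehydrogenase (Hsd17b7) and an isomerase (Ebp), lay between -0.23 and 0.17 on the log2 scale against WT.

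Among the regulators, Scap encodes the escort protein of SREBPs. Its WT levels were 78.9 to 99.6 CPM (median 91.1), the KI-96 mice had 96.2, 116, 85.0 and 95.9, the KI-571 mice 105, 103, 103 and 78.1, and the KI-FL mice 97.6, 88.3, 115 and 118. All KI genotypes overlapped with WT, and the KI-FL log2 fold change was 0.21 ± 0.10, with an exact permutation p of 0.0788. Insig1, an SREBP target that retains SCAP, had -0.27 ± 0.12 in KI-96, -0.20 ± 0.12 in KI-571 and -0.22 ± 0.12 in KI-FL mice, while Insig2 lay between -0.05 and 0.15. Srebf2 had 0.23 ± 0.11, 0.16 ± 0.11 and 0.21 ± 0.11 in the same order, and Srebf1, whose main isoform in many tissues serves fatty acid synthesis, 0.06, -0.04 and -0.15, none with an unadjusted p under 0.05.

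Among the transport genes, Abca1, which encodes a transporter that loads cholesterol onto apolipoproteins, was at 54.1 to 89.5 CPM in WT mice (median 76.3). The KI-96 mice had 77.9, 80.6, 78.01 and 61.6 CPM, the KI-571 mice 60.7, 61.8, 78.8 and 66.0, and the KI-FL mice 69.1, 57.9, 61.5 and 41.8. All KI genotypes overlapped with WT, with KI-FL replicate 4 below the WT range. The KI-FL log2 fold change against WT was -0.40 ± 0.14 (edgeR p = 0.00921, Benjamini-Hochberg adjusted p = 0.167), with an exact permutation p of 0.0606, and -0.27 without KI-FL replicate 4. KI-96 against KI-FL was 0.37 ± 0.16, and 0.24 without that mouse.

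Npc1 and Npc2 encode the membrane and the soluble protein that move cholesterol out of lysosomes. Npc1 was at 82.9 to 116 CPM in WT mice (median 103), at 119, 118, 114 and 101 in KI-96 mice, at 103, 89.1, 97.7 and 82.7 in KI-571 mice and at 84.8, 92.6, 94.5 and 92.9 in KI-FL mice. The KI-96 and KI-FL mice did not overlap, with a log2 fold change of 0.30 ± 0.11 and an exact permutation p of 0.0286, and KI-96 against KI-571 was 0.28 ± 0.11 with overlap. For KI-96 against KI-FL the share of all genes without overlap was not computed, and 8.9% of all genes had an unadjusted edgeR p under 0.05. Npc2 was at 72.3 to 85.2 CPM in WT mice (median 77.9), at 87.2, 84.6, 46.5 and 86.8 in KI-96 mice, at 79.8, 99.0, 91.2 and 104 in KI-571 mice and at 87.4, 75.4, 82.1 and 81.3 in KI-FL mice. The low KI-96 value is that of replicate 3, and 3 of the 4 KI-571 mice lay above the WT range. The log2 fold change of Npc2 was 0.27 ± 0.12 for KI-571 against WT, with an exact permutation p of 0.0121, and -0.29 ± 0.14 for KI-96 against KI-571, or -0.12 without KI-96 replicate 3.

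The receptor gene Nr1h3, which encodes the sterol sensor LXRα, was at 3.15 to 5.16 CPM in WT mice (median 3.66) and at 6.87, 7.38, 3.40 and 4.99 in KI-571 mice, where 2 of 4 mice lay above the WT range, a log2 fold change of 0.54 ± 0.23. Nr1h2, which encodes LXRβ, lay between -0.09 and 0.11. Lrp1 had 0.31 ± 0.14 and Abcg1, a transporter that exports cholesterol to lipoproteins, 0.28 ± 0.13 in KI-96 mice, and WT replicate 1, with high Xist, was above all other WT mice in both genes. Without KI-96 replicate 3, Lrp1 was at 0.21. Apoe (0.06 to 0.23), Cyp46a1 (0.01 to 0.17) and Soat1, which esterifies cholesterol (0.02 to 0.27), had log2 fold changes above 0 in the 3 KI genotypes, without an unadjusted p under 0.05. Apoe ranged from 892 to 2364 CPM in KI-96 mice (median 2012), compared with 1563 to 1929 in WT mice. Without WT replicate 3, KI-96 replicate 3 and KI-FL replicate 4 together, Apoe was at 0.26 in KI-96 mice (unadjusted p = 0.0200). In that fit Apoe was at 0.20 in KI-571 mice (unadjusted p = 0.0482) and at 0.090 in KI-FL mice (unadjusted p = 0.387). Soat1 was at -0.055 in KI-FL mice in the same fit. With oligodendrocyte markers as a covariate, Apoe was at 0.37 in KI-571 mice (unadjusted p = 0.0160) and at 0.47 in KI-FL mice, and Npc2 at 0.27 in KI-FL mice. These markers were lower in KI-FL mice, so that this fit cannot fully separate them from that genotype.

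**Figure D3:**
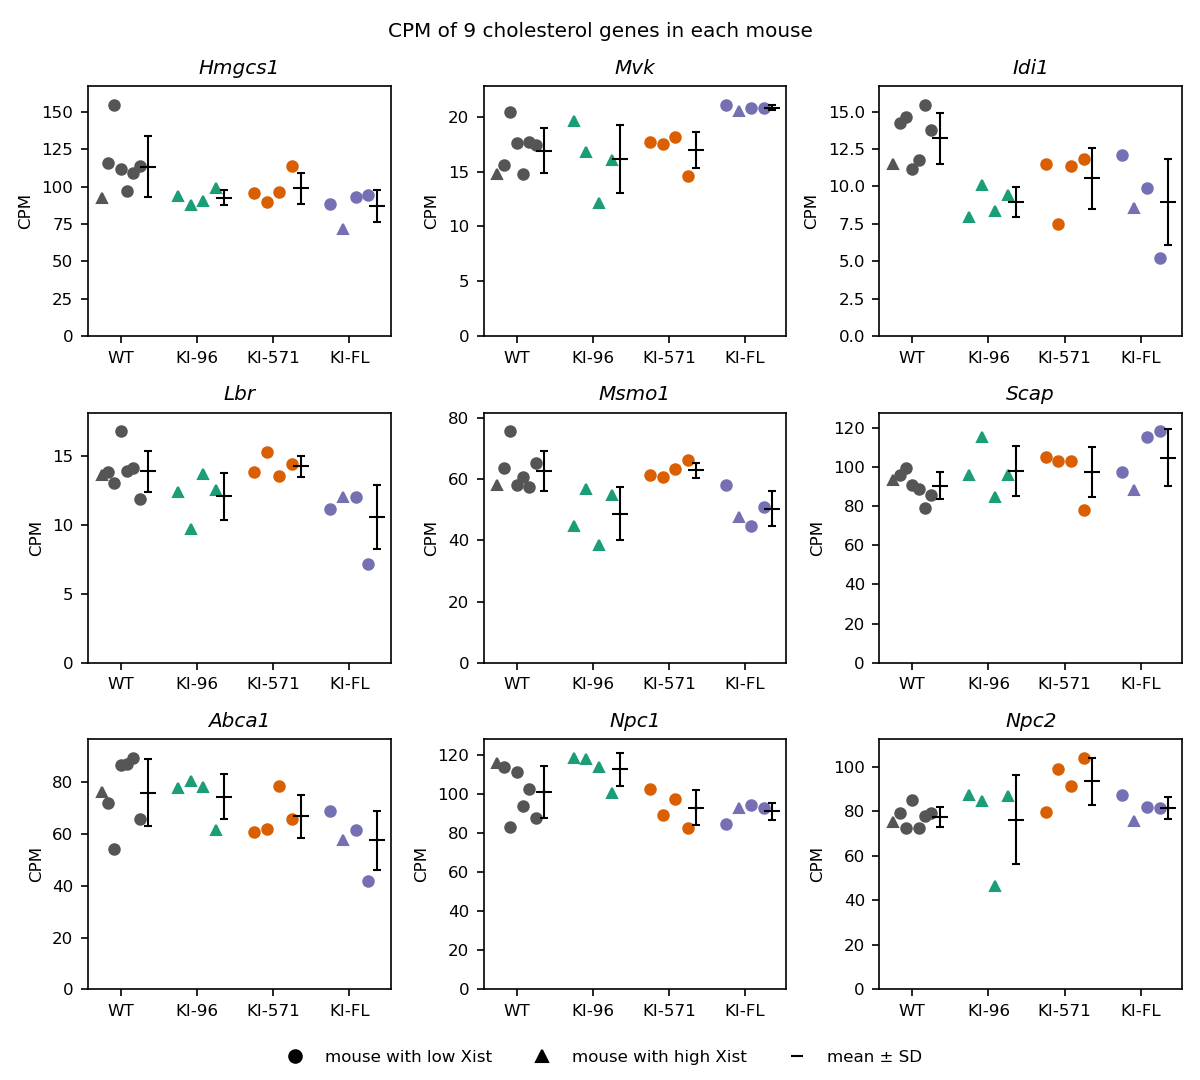
CPM of 9 members in each mouse by genotype, with triangles for mice with high Xist and black marks for the mean and SD. The 4 KI-FL mice sit between 20.5 and 21.1 CPM for Mvk, above all other mice, and KI-96 replicate 3 sits at 46.5 CPM for Npc2, below its genotype.

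Exact permutation tests of log2 CPM were run for these 9 genes in 6 comparisons, 54 tests in all. The genes had been chosen by their edgeR p in the same mice, so that these exact p-values are no independent evidence. After Benjamini-Hochberg adjustment over the 54 tests the smallest exact permutation p was 0.109.

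The KI genotypes were also compared with each other, and these comparisons share mice. KI-571 against KI-FL gave an unadjusted p under 0.05 for 3 members, Mvk lower and Lbr and Msmo1 higher in KI-571 mice, compared with 8.9% of all genes. KI-96 against KI-FL gave 4 members, Mvk and Nsdhl lower and Abca1 and Npc1 higher in KI-96 mice, compared with 8.9% of all genes. KI-96 against KI-571 gave 3 members, Msmo1 and Npc2 lower and Npc1 higher in KI-96 mice, compared with 5.51%. The test for any difference among the 4 genotypes gave 7 members, compared with 11.7% of all genes.

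Averaged over the 19 synthesis genes, the level was 4.56 ± 0.141 log2 CPM for WT (SD, n = 7), with 4.40 ± 0.102 for KI-FL, 4.45 ± 0.0210 for KI-571 and 4.35 ± 0.159 for KI-96 (n = 4 each). Of the WT mice, replicate 1, the only one with high Xist, was at 4.33 and the 6 with low Xist at 4.48 to 4.80. The highest was WT replicate 3, which also had the highest cortical neuron markers. The single KI-FL mouse with high Xist was at 4.43, within the 4.24 to 4.46 of the other KI-FL mice. The KI-96 mice, at 4.11 to 4.44, had WT replicate 1 within their range. Among mice with low Xist, a split made after these values were seen, the 4 KI-571 mice were at 4.42 to 4.47. The 3 KI-FL mice were at 4.24 to 4.46, and both groups lay below the 4.48 of the lowest such WT mouse. The gap was narrow, with KI-571 replicate 4 at 4.470 and WT replicate 5 at 4.476. The mean includes Fdps, whose count is too low to compare, with no read in KI-FL replicate 4. Summed over the same genes, WT replicate 5 was at 585.8 CPM. The KI-571 mice were at 577.8 to 620.4 CPM and KI-FL replicate 1 at 586.2, so that both overlapped with WT. The share of all genes that separate in this split was not computed. The 10 transport genes were at 6.69 ± 0.0984 in WT, 6.81 ± 0.150 in KI-96, 6.82 ± 0.0963 in KI-571 and 6.70 ± 0.123 log2 CPM in KI-FL mice, and the 5 regulators at 6.53 ± 0.0611, 6.57 ± 0.152, 6.52 ± 0.116 and 6.57 ± 0.130. WT replicate 1 was the highest WT mouse in the transport mean, at 6.84. The part of sex, neighbouring tissue and the libraries that stand apart in these differences was not tested beyond the values given.

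**Figure D4:**
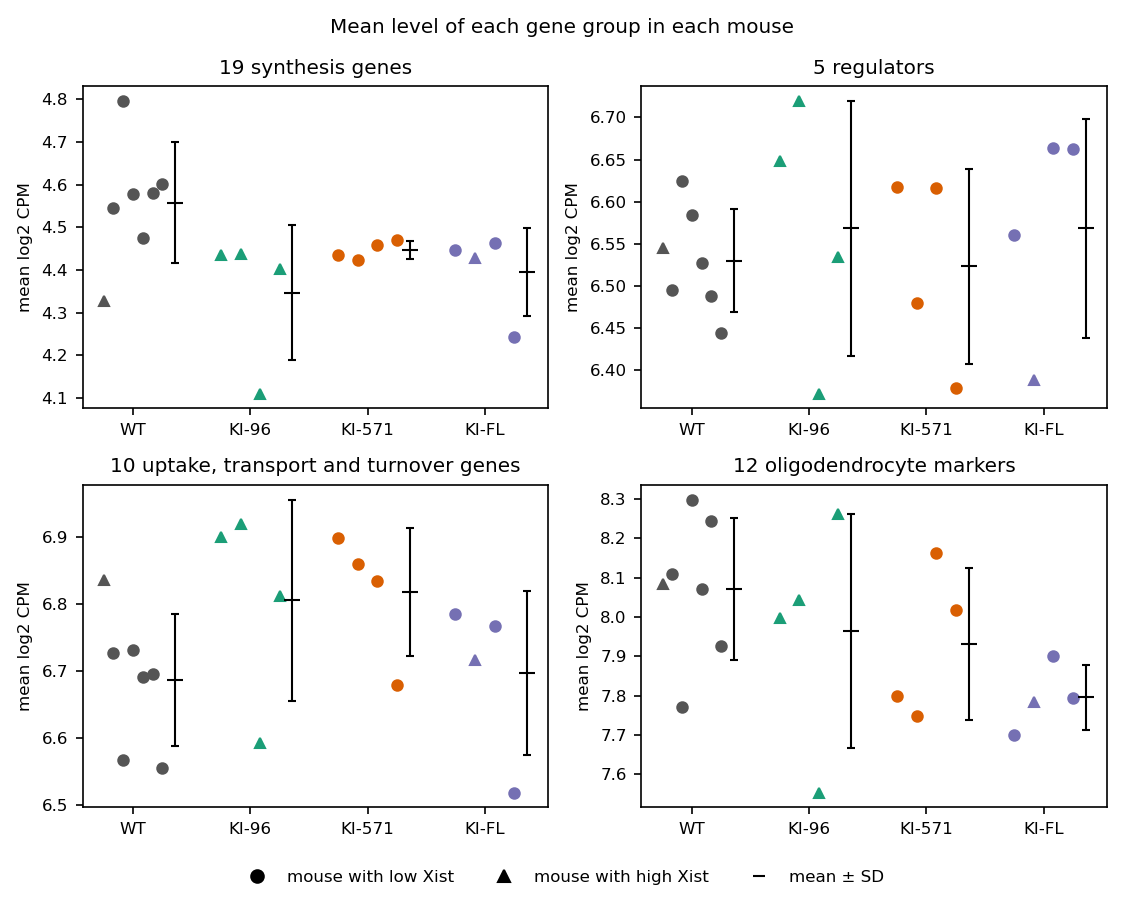
Mean log2 CPM of the synthesis genes, regulators, transport and turnover genes and oligodendrocyte markers in each mouse, with triangles for high Xist and black marks for the mean and SD, on axes that do not start at 0. WT replicate 1 lies at 4.33 for the synthesis genes, among the KI-96 mice, and all KI-FL mice lie between 7.70 and 7.90 for the oligodendrocyte markers.

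Other genes of lipid metabolism, taken from lists that do not share genes with the 34, were compared in the same way. Of 19 further sterol and isoprenoid genes, 10 were below 0 in each KI genotype against WT, with medians of -0.012 for KI-96, -0.012 for KI-571 and -0.00064 for KI-FL, and none passed the adjusted threshold. Lrp8, a receptor for apolipoprotein E and reelin, had the smallest p in KI-FL mice, with 45.5 ± 3.80 CPM compared with 56.8 ± 6.82 in WT mice. Of 12 fatty acid genes, 7, 8 and 8 were below 0, with medians of -0.025, -0.053 and -0.076, and Me1, which supplies NADPH, was at 29.5 ± 4.79 CPM in KI-FL and 40.6 ± 10.6 in WT mice.

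Markers of the cells that use these genes were set beside them in KI-FL mice. The water channel gene Aqp4 of astrocytes was at 70.3 ± 5.47 CPM in KI-FL and 98.5 ± 14.9 in WT mice, and P2ry12 of microglia at 23.7 ± 2.30 and 34.5 ± 4.63. Astrocyte markers were below 0 in 8 of 9 genes (median -0.15), microglia markers in 3 of 7 (median 0.10) and striatal projection neuron markers in 5 of 10 (median 0.062), with Bcl11b at 459 ± 42.9 and 373 ± 43.8 CPM. Cortical neuron markers (median -1.60, with Tbr1 at 3.83 ± 3.31 and 15.3 ± 30.3 CPM) and choroid plexus markers (median 1.81, with Kl at 33.2 ± 50.5 and 8.67 ± 4.60 CPM) spread widely among mice.

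Blood genes were the only marker genes past the adjusted threshold in edgeR's test. Alas2 and Hbb-bt were higher in KI-571 than in WT mice, by 1.77 ± 0.30 and 1.68 ± 0.30 on the log2 scale, and these genes with Hbb-bs and Hba-a1 were higher in KI-571 than in KI-FL mice, by 1.95 to 2.06. DESeq2 also called 2 oligodendrocyte, 1 astrocyte and 1 microglia marker in KI-FL against WT, compared with 2.74% of all genes. It called 2 choroid plexus markers in KI-571 against WT (0.626% of all genes) and 2 in KI-96 against KI-571 (0.189%). The mean of the 5 blood genes was 4.36 to 5.93 log2 CPM in KI-571 mice, 3.10 to 4.24 in WT mice and 2.55 to 3.81 in KI-FL mice. All 7 choroid plexus markers were above 0 in KI-571 against WT mice, with a median of 3.18. Of the KI-571 mice, replicates 2 and 4 had the highest choroid plexus means and Npc2 levels, while replicates 1 and 2 had the highest Nr1h3 levels. The part of blood and choroid plexus in the higher Npc2 and Nr1h3 levels of KI-571 mice was not tested.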

How the data were processed

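Striatal RNA of 19 mice was measured by RNA sequencing. The authors deposited whole-number read counts for each gene, made by trimming with BBduk, alignment to GRCm38 with STAR and counting with HTSeq; versions, annotation and strand setting are not given in the sources used here. Genotypes came from the sample labels, which give neither sex nor sacrifice batch, and the WT sample removed by the authors is not named, and therefore all 7 WT mice entered. The 4 columns that match no sample were not used, and the 5 summary lines of HTSeq, 20.8% to 32.8% of each column, were left out.

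Of 54232 gene identifiers, 54079 were named. Genes were filtered with filterByExpr (minimum count 10, minimum total 15), normalized by TMM and fitted for all 19 mice with a coefficient for each genotype in edgeR 4.0.16 (R 4.3.3). The quasi-likelihood F-test with Benjamini-Hochberg adjustment over 18521 genes had a threshold of 0.05. Log2 CPM used a prior count of 2. The members and lists were chosen with earlier results of these data known. Values in every mouse are given for members with an unadjusted p under 0.05 in at least 2 comparisons or the smallest p of their role in KI-FL against WT, and Cyp51, Nr1h3 and Htt were added. Genes of the other lists are named if they passed the adjusted threshold or had the smallest p of their list in KI-FL against WT, except for an oligodendrocyte marker that is not reported here. Positions and exons are those of GENCODE mouse release M21, and promoter sequences those of RefSeq. Exact permutation tests (scipy 1.17.1) were two-sided.

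Alternatives were DESeq2 1.42.0, its size factors, other count filters, 1 surrogate variable (sva 3.50.0), Xist or oligodendrocyte markers as covariates, WT replicates 1 to 4 alone, only the groups compared, the replicate block, each mouse left out and, added after the data were seen, 3 libraries left out. The procedure was tested on simulated counts.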

Additional observations from a re-analysis of the deposited data

Results flagged for a closer look

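The levels of 9 members in each mouse and the means of 3 gene groups were searched in each of the 4 genotypes for a mouse far from the others, by the size of its gap relative to the range. In 8 of 48 such groups a mouse stood apart in this way, and all 8 were low and in KI genotypes, which are 3 of the 4 genotypes. The cut-off gives about 1 in 20 for independent groups of normally spread values. The 9 members were chosen in the same mice, some of them enter the group means, and the same libraries recur. The 8 groups can therefore not be set against that rate. KI-96 replicate 3, which had 24.2% of its reads on no gene, was at 5.54 log2 CPM for Npc2, compared with 6.40 to 6.45 in the other KI-96 mice, and at 4.11 for the mean of the synthesis genes, compared with 4.40 to 4.44. KI-FL replicate 4, with 3186 tested genes at 0, was at 2.86 for Lbr, compared with 3.49 to 3.60, and at 4.24 for the synthesis mean, compared with 4.43 to 4.46. That mean includes Fdps, which had no read in this mouse. The mevalonate genes, with Fdps among them, had a mean of 3.44 in KI-FL replicate 4. Its mean over the sterol genes was 4.71, within the KI-FL range of 4.71 to 4.75. KI-571 replicate 4 was at 3.87 for Mvk, compared with 4.14 to 4.19, and at 6.29 for Scap, compared with 6.69 to 6.72. KI-571 replicate 2 was at 2.93 for Idi1, compared with 3.52 to 3.58. KI-96 replicate 4 was at 5.95 for Abca1, compared with 6.29 to 6.33. What set these mice apart was not tested.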

How the results depend on the processing

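The single-gene log2 fold changes with an unadjusted p under 0.05 in edgeR, without covariates or mice left out, kept their sign under every alternative run. Several medians of gene groups changed sign. No member passed the adjusted threshold in edgeR under any alternative, whereas DESeq2 called 1 in KI-96 against WT and 2 in the test for any difference. The fit with Xist as a covariate cannot separate Xist from the KI-96 genotype. In it, the synthesis genes below 0 numbered 8 instead of 14 of 19 in KI-96 against KI-571 and 6 instead of 12 in KI-96 against KI-FL. In KI-96 against WT the members with an unadjusted p under 0.05 numbered 0 instead of 8 with this covariate. With each mouse left out in turn, that last number ranged from 5, without KI-96 replicate 3 or WT replicate 3, 6 or 7, to 12, without WT replicate 1, and it was 5 with oligodendrocyte markers as a covariate. For KI-571 against WT it ranged from 1 to 4 around a value of 2. Some medians of the 5 regulators changed sign, and others moved without a change of sign. For KI-571 against WT the median was -0.043. It became 0.073 with oligodendrocyte markers as a covariate, 0.033 with the replicate block and 0.031 with WT replicates 1 to 4. For KI-96 against KI-FL it was 0.024 with 1 surrogate variable and 0.033 with 3 libraries left out, instead of -0.049. The sign stayed the same for KI-96 against WT, with 0.16 with 3 libraries left out and 0.20 with Xist, instead of 0.069. It also stayed for KI-FL against WT, with 0.081 with the replicate block and 0.076 with WT replicates 1 to 4, instead of 0.15. With each mouse left out the regulator median ranged from -0.14 to 0.042 (KI-571 against KI-FL), -0.047 to 0.075 (KI-96 against KI-571), -0.11 to 0.038 (KI-96 against KI-FL), 0.016 to 0.18 (KI-96 against WT) and 0.072 to 0.18 (KI-FL against WT), and the transport median of KI-96 against KI-FL from 0.066, without KI-FL replicate 4, to 0.20. Other medians moved too. Without KI-96 replicate 3 the synthesis median of KI-96 against KI-FL was 0.057 instead of -0.048 and the transport median of KI-96 against KI-571 was 0.039 instead of -0.050. With Xist the synthesis medians were 0.035 for KI-96 against KI-FL and 0.029, instead of -0.080, for KI-96 against KI-571. That of KI-571 against KI-FL, 0.0061, lay between -0.030 and 0.024 with each mouse left out. The transport median of KI-FL against WT was 0.0068 without KI-FL replicate 1, and the synthesis median of KI-571 against WT was -0.052 without KI-571 replicate 1. The causes were not tested.

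Same-numbered mice are different animals, and the replicate block was not used as a pairing. The deviations of same-numbered mice from the genotype means correlated with r between -0.13 and 0.29. Of 16 mice, 8 correlated best with their own number. The number that chance gives was not computed, and whether same-numbered mice share a batch was not tested. With the replicate block, members with an unadjusted p under 0.05 numbered 5 for KI-96, 1 for KI-571 and 4 for KI-FL against WT, instead of 8, 2 and 7. Genotype and sex cannot be told apart in KI-96 mice, batch is not given in the labels, and the count of Fdps is too low to compare.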
